A study of Drosophila melanogaster with 5 samples.

Results

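The genes described are those that encode mitochondrial ribosomal proteins in Drosophila melanogaster, measured in salivary glands at the onset of metamorphosis. They were chosen by name: every probe set whose only annotated gene symbol starts with mRpL (large subunit) or mRpS (small subunit). This gave 69 of the 11982 genes that have such a probe set, on 71 of 18769 probe sets: 45 for 44 genes of the large subunit and 26 for 25 genes of the small subunit. The study compared 3 arrays from glands labelled P{hs-Fkh111}, which by its name puts the transcription factor Fork head (Fkh) under heat-shock control, with 2 arrays from glands of w1118, a white-eyed laboratory strain without a stated transgene. Animals of both groups grew at 25 °C and received the same heat shock (37 °C, 30 min) 9.5 h after they formed a puparium, and glands were taken 14 h after puparium formation. A heat-shock promoter is not limited to the gland, so other tissues of the carriers could also have made Fkh. The comparison addresses which genes respond to Fork head at this stage.

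Mitochondria translate a few essential respiratory chain proteins from their own genome with a ribosome of bacterial descent. Its RNAs are made in the organelle, but all of its proteins are encoded in the nucleus, translated in the cytosol and imported. The small subunit holds the decoding centre, where messenger RNA and transfer RNA pair, and the large subunit holds the peptidyl transferase centre and the tunnel through which the new chain leaves. Part of the proteins have a counterpart in bacteria and the others arose with the mitochondrial ribosome. Salivary glands of the larva secrete glue proteins and are destroyed early in metamorphosis.

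Signals are dChip intensities, which are comparable between arrays for 1 probe set but not between probe sets. The median signal was 44.6 to 49.5 over the 5 arrays. The bioB control probe sets had a mean signal of 398, 388 and 744 with the Fkh label against 662 and 621 in w1118. By this control, Fkh-labelled arrays 1 and 2 stood apart from array 3 and from w1118. The fkh probe set went against the label, reading 41.5, 47.0 and 58.3 with the Fkh label against 130 and 120 in w1118 (log2 fold -1.13, limma adjusted p = 0.0026), and whether it lies within the transgene is not known here. Every direction below therefore rests on the labels, and the groups are called the Fkh-labelled arrays and w1118. The summed signal of 16 gland markers was 68076 to 68891 with the Fkh label against 39714 and 43317 in w1118. Of 15 tested, 8 were higher and 2 lower (limma). For this and the other marker lists, the share over all genes tested was 21.5% higher and 19.3% lower. A summed signal is set by its brightest probe sets. Eig71Ea and Eig71Ed, the brightest here, were not called (means 12414 against 12885 and 13312 against 14365). The gap lay mostly in Sgs1, Sgs3, Sgs4 and Sgs5, with means of 6989, 5934, 8250 and 10172 against 633, 867, 2203 and 818. Sgs7 went the other way (2676 against 4043), as did the mean of Sgs8, which was not called. In w1118 ng1 read 15.4 and 9.1. Some markers of fat body, haemocytes and neurons were lower with the Fkh label. The summed signal of 7 fat body genes was 11754 to 13190 against 21797 and 22955, with 3 of 7 tested lower and 0 higher (limma; 4 and 0 at an unadjusted p under 0.05), and that of 8 haemocyte genes 646 to 837 against 1526 and 1539, with 3 of 6 tested lower. Most of the haemocyte gap was NimC4, at 192, 226 and 250 against 953 and 872. The 3 neuronal genes summed to 112 to 138 against 221 and 331 (2 of 3 lower), while 4 muscle genes (114 to 148 against 154 and 158) and 4 gut genes (132 to 178 against 160 and 176) were dim in both. No marker had a signal of 0. The actin control probe sets gave a 3' over 5' signal ratio, which rises with RNA degradation or short labelling products, of 4.94, 4.30 and 3.37 with the Fkh label against 2.47 and 2.54 in w1118. The same ratio was 2.35, 1.81 and 1.68 against 1.53 and 1.55 for eIF-4a, and 4.49, 2.41 and 4.51 against 2.32 and 1.2 for 18S. For GAPDH the groups overlapped (1.56, 1.14 and 1.11 against 1.16 and 1.14). The part of these differences in the results below was not tested, and in whole glands fewer cells of a type and less RNA per cell cannot be told apart.

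The mitoribosomal genes moved in both directions, and their medians lay close to that of all probe sets. Of 70 member probe sets that passed the filter on low signal, 10 were higher and 9 lower in the Fkh-labelled arrays (limma, Benjamini-Hochberg adjusted p under 0.05 over all probe sets tested). That is 27.1% of them, beside 39.4% of the 11261 probe sets tested. In the large subunit 4 of 44 were higher and 7 lower, and in the small subunit 6 of 26 were higher and 2 lower, beside 20.7% higher and 18.7% lower over all probe sets. Of the 19 calls, 6 rises and 2 falls were at least 2-fold, beside 21.8% of all probe sets called at that size in either direction. With every probe set tested and no filter, 3 rose and 4 fell in the large and 5 rose and 1 fell in the small subunit, beside 12.2% higher and 11.8% lower over all. With each array centred on its median, 6 large subunit members were higher and 6 lower. The median log2 fold over all 45 large subunit probe sets, filtered or not, was 0.01, and over all 26 of the small subunit -0.04, beside -0.03 over all 18769. The quartiles were -0.41 and 0.38 for the members and -0.40 and 0.36 for all probe sets, filtered or not. Nearly all members passed the filter, and over the 11261 probe sets that passed it the median was -0.01. The quartiles of those were -0.45 and 0.48, wider than for the members. Here and below, rose, fell, higher and lower with an adjusted p mean past this threshold, and the log2 fold is on the log2(signal + 16) scale, which understates changes of dim probe sets.

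**Figure D1:**
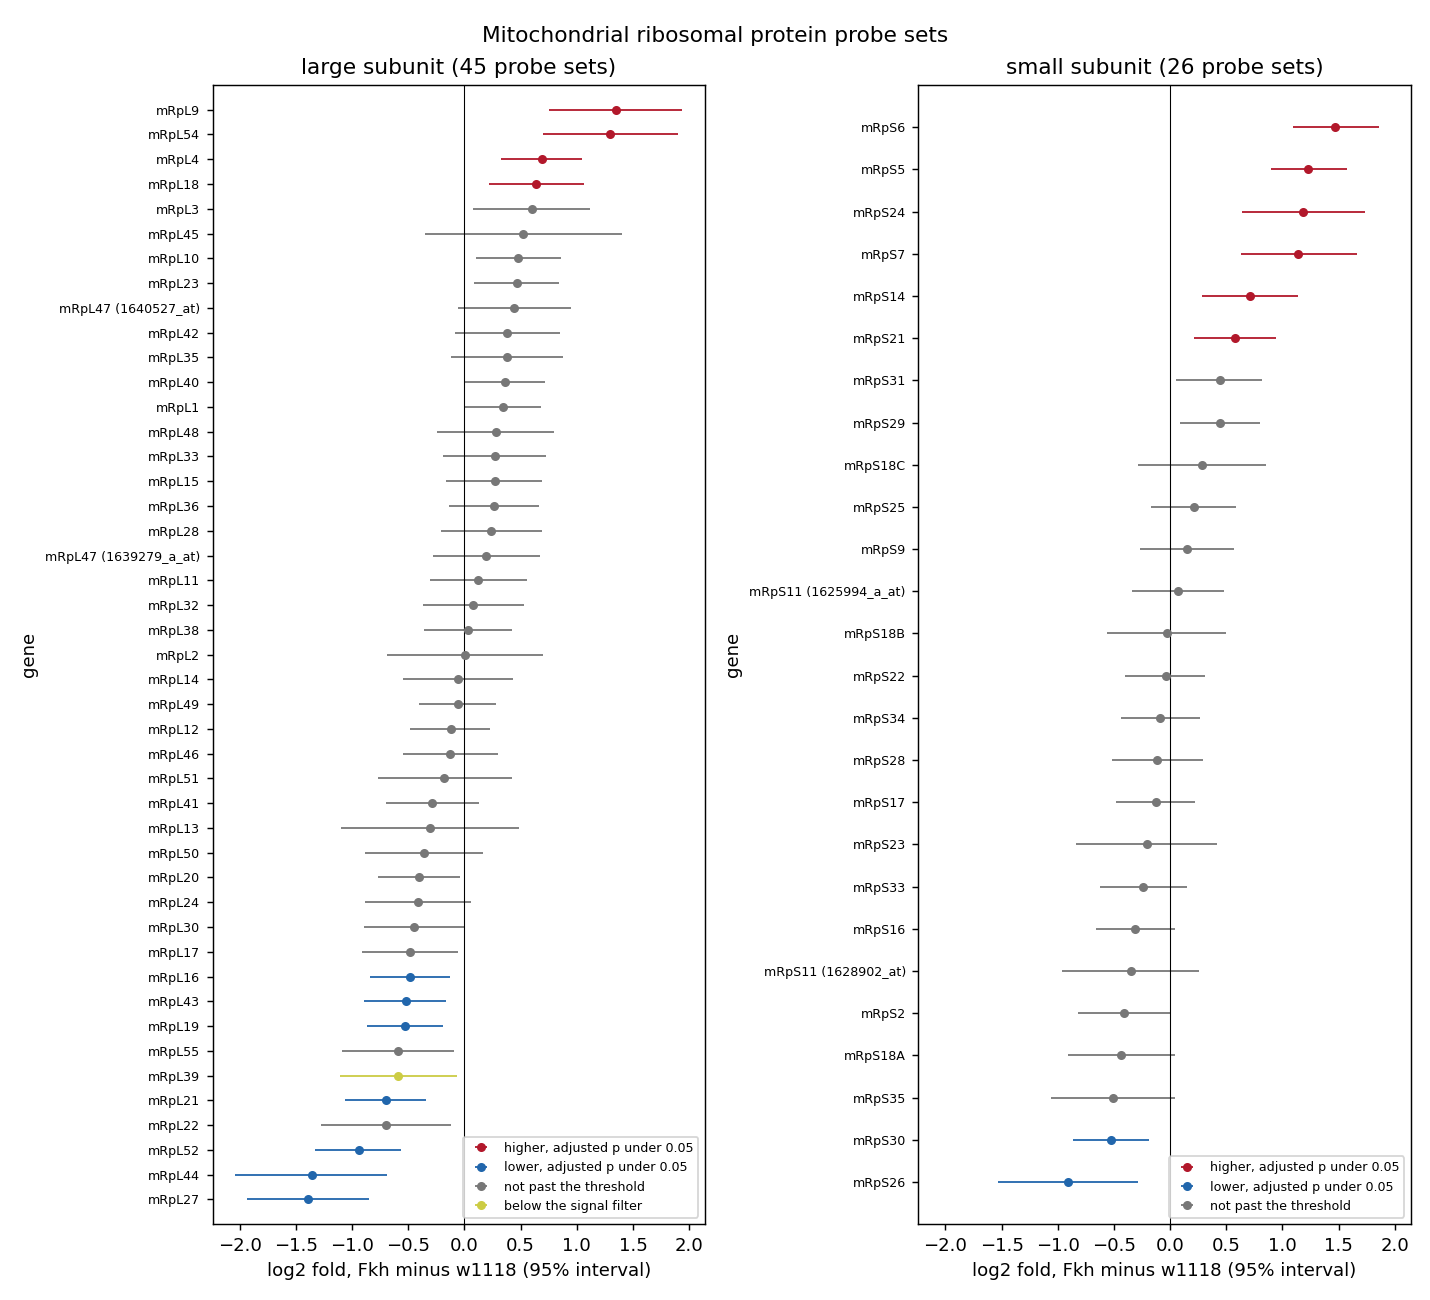
Log2 fold between the Fkh-labelled arrays (n = 3) and w1118 (n = 2) for each member probe set, with its 95% interval from limma, in the large subunit (left) and small subunit (right). Large subunit members run from -1.39 to 1.35 and small subunit members from -0.91 to 1.47, and most intervals stay within a 2-fold change.

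The small subunit held the clearest rises. mRpS6, the counterpart of bacterial S6 on the platform of the small subunit, had signals of 187, 149 and 156 with the Fkh label against 50.1 and 46.9 in w1118. The groups were far apart, with means of 164 ± 20.3 and 48.5 ± 2.32 (SD, n = 3 and 2), and the test gave a log2 fold of 1.47 ± 0.16 SE (limma adjusted p = 0.00067). mRpS5, whose bacterial counterpart lies near the entry of the messenger RNA and affects decoding accuracy, read 2046, 2071 and 2165 against 895 and 868. Its arrays agreed closely within each group (log2 fold 1.23 ± 0.14 SE, limma adjusted p = 0.00081). mRpS7, a protein of the head of the subunit, read 504, 485 and 333 against 197 and 178. All Fkh-labelled arrays lay above both controls, the third nearest to them (log2 fold 1.14 ± 0.21 SE, limma adjusted p = 0.0063). mRpS24, which human nomenclature places in the family of bacterial S3, read 241, 168 and 153 against 82.7 and 62.7, with a log2 fold of 1.18 (limma adjusted p = 0.0071), and without w1118 array 2 its adjusted p was 0.054.

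Smaller rises in this subunit were those of mRpS14 and mRpS21. mRpS14, another protein of the head, read 130, 118 and 96.8 against 70.5 and 57.2, a log2 fold of 0.71 (limma adjusted p = 0.020). mRpS21, counterpart of bacterial S21, read 527, 523 and 609 against 376 and 353, a log2 fold of 0.58 (limma adjusted p = 0.025). The groups did not overlap for either gene, but both calls needed nearly all arrays. Without Fkh-labelled array 1, 2, w1118 array 1 and w1118 array 2 the adjusted p was 0.069, 0.063, 0.053 and 0.12 for mRpS14, and 0.061, 0.057, 0.086 and 0.12 for mRpS21. The adjusted p of mRpS21 was also 0.10 after quantile normalization, 0.055 with no filter and 0.059 with the replicate number as a block.

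In the large subunit the leading rises were mRpL9 and mRpL54. mRpL9, whose bacterial counterpart is an elongated protein reaching out from the side of the subunit, read 392, 378 and 231 with the Fkh label against 124 and 113 in w1118. The third Fkh-labelled array was the lowest of its group and still above both controls (log2 fold 1.35 ± 0.25 SE, limma adjusted p = 0.0059). mRpL54, a protein without a bacterial counterpart, read 189, 158 and 101 against 50.7 and 48.2, with the same order of arrays and a log2 fold of 1.30 (limma adjusted p = 0.0070). mRpL4, whose bacterial counterpart lines the tunnel for the new chain, read 92.4, 81.2 and 80.5 against 43.8 and 48.9, a log2 fold of 0.69 (limma adjusted p = 0.012). mRpL18, whose bacterial counterpart binds the small ribosomal RNA of the large subunit, read 83.9, 62.2 and 66.7 against 43.8 and 35.6, a log2 fold of 0.64 (limma adjusted p = 0.028). The last pair of calls was weaker: the adjusted p of mRpL4 was 0.076 without w1118 array 1, and that of mRpL18 was 0.087, 0.070 and 0.15 without Fkh-labelled array 1, w1118 array 1 and w1118 array 2, and 0.054 with no filter.

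Of the large subunit members 7 fell, and the largest falls were as large as the largest rises. mRpL27, whose bacterial counterpart reaches into the peptidyl transferase centre, read 67.1, 46.5 and 37.0 with the Fkh label against 171 and 139 in w1118. The groups were well apart, with means of 50.2 ± 15.4 and 155 ± 22.2 (SD, n = 3 and 2), and the test gave a log2 fold of -1.39 ± 0.23 SE (limma adjusted p = 0.0036). mRpL44, a protein with an RNase III-like fold in its human counterpart, read 36.3, 78.3 and 42.1 against 177 and 133, a log2 fold of -1.36 (limma adjusted p = 0.0096). Its Fkh-labelled array 2 was the highest of its group and below both controls, and without w1118 array 1 the adjusted p was 0.072. mRpL52, which has no bacterial counterpart, read 47.4, 43.8 and 35.3 against 98.1 and 92.7 (log2 fold -0.94 ± 0.16 SE, limma adjusted p = 0.0043). mRpL21, counterpart of bacterial L21, read 36.2, 39.3 and 44.2 against 78.2 and 71.4, a log2 fold of -0.70 (limma adjusted p = 0.011), and 0.074 was its adjusted p without w1118 array 1.

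The other falls in the large subunit were smaller and less secure. mRpL19, whose bacterial counterpart sits at the interface of the subunits, read 312, 310 and 328 against 446 and 483, a log2 fold of -0.53 (limma adjusted p = 0.026). mRpL43 went from 92.6 to 59.7 (log2 fold -0.52, limma adjusted p = 0.034) and mRpL16, whose bacterial counterpart helps to place transfer RNA, from 174 to 120 (log2 fold -0.48, limma adjusted p = 0.042). Every Fkh-labelled array lay below both controls for these 3 genes. Without Fkh-labelled array 1, 2, w1118 array 1 and w1118 array 2 the adjusted p was 0.083, 0.084, 0.082 and 0.13 for mRpL19, 0.086, 0.11, 0.14 and 0.11 for mRpL43, and 0.086, 0.10, 0.19 and 0.10 for mRpL16. Without Fkh-labelled array 3 that of mRpL16 was 0.052, so its call was lost whichever array was left out. With no filter the adjusted p of mRpL19, mRpL43 and mRpL16 was 0.064, 0.074 and 0.091, and that of mRpL16 was 0.070 after median centring and 0.084 with the replicate block.

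Only mRpS26 and mRpS30 fell in the small subunit by this test. mRpS26 read 26.7, 46.9 and 39.0 with the Fkh label against 109 and 62.9 in w1118 (log2 fold -0.91 ± 0.26 SE, limma adjusted p = 0.032). The controls differed from each other more than the Fkh-labelled arrays did, and the adjusted p was 0.086, 0.055 and 0.19 on leaving out array 1 or 3 of the Fkh label or w1118 array 1, and 0.090 with the replicate block. mRpS30 read 61.7, 62.0 and 59.8 against 97.7 and 92.5, a tight separation with a log2 fold of -0.53 (limma adjusted p = 0.025). Without Fkh-labelled array 1, 2, w1118 array 1 and w1118 array 2 its adjusted p was 0.076, 0.073, 0.12 and 0.086, and it was 0.063 with no filter and 0.058 with the replicate block. The human counterpart of mRpS30 is found in the large subunit despite its name, and the grouping here follows the symbols.

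**Figure D2:**
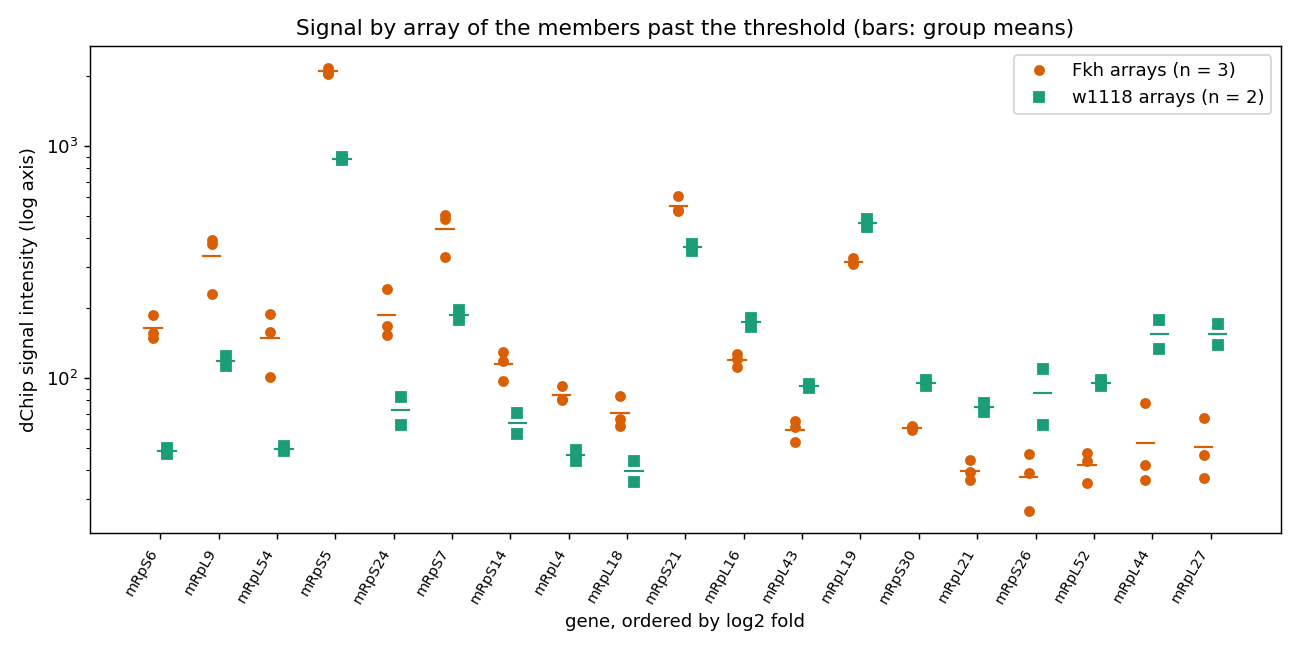
Signal of the 19 members past the threshold in each array on a log axis, with circles for the 3 Fkh-labelled arrays, squares for the 2 w1118 arrays and bars for group means. The groups do not overlap for any of the 19, and for mRpL9, mRpL54 and mRpS7 the third Fkh-labelled array lies nearest to w1118.

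Separation of the groups alone was common. The Fkh-labelled arrays did not overlap with w1118 for 42 of the 70 members tested, above in 19 and below in 23, beside 63.7% of all probe sets tested. Of the 51 members tested and not called, 45 had a 95% interval of the difference that stayed within a 2-fold change either way. The remaining 6 were mRpL3, mRpL13, mRpL22, mRpL45, mRpL55 and mRpS35. Counting called members too, 71.4% of the 70 tested had such an interval, beside 52.4% of all probe sets tested. These intervals bound the change and do not show that the signal was equal.

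Of the 6 members with the wider intervals, mRpL45, whose human counterpart lies at the exit of the tunnel, varied most. Its signals were 766, 944 and 379 with the Fkh label against 479 and 418 in w1118. Arrays 1 and 2 were thus above both controls and array 3 below both, with a log2 fold of 0.52 and an interval of -0.35 to 1.40 (limma adjusted p = 0.30). Without Fkh-labelled array 3 its adjusted p was 0.011, with the replicate number as a block it was 0.026, and with array 3 alone the log2 fold was -0.23. mRpL22 had means of 281 and 463 with a log2 fold of -0.70 and an interval of -1.28 to -0.12 (limma adjusted p = 0.060). mRpL3, whose bacterial counterpart lies near the peptidyl transferase centre, read 115, 72.2 and 117 against 60.6 and 59.7, all above the controls, with a log2 fold of 0.60 (limma adjusted p = 0.070; 0.021 without Fkh-labelled array 2).

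Members close to the threshold show how fine the line was. Just outside it lay mRpL10 (log2 fold 0.48, limma adjusted p = 0.053) and mRpL23 (0.47, 0.056) in the large subunit. In the small subunit these were mRpS29, the counterpart of the human GTP-binding protein DAP3 (0.44, 0.055), and mRpS31 (0.44, 0.070). mRpL10 passed with a constant of 64, after median centring and with a stricter filter (adjusted p = 0.046, 0.046 and 0.037), mRpL23 with a constant of 1 and after quantile normalization (0.049 and 0.046), and mRpS29 with the stricter filter and without Fkh-labelled array 3 (0.036 and 0.041). mRpL12 and mRpL11, which with mRpL10 belong to the stalk that receives translation factors and its base, had log2 folds of -0.12 and 0.12 (intervals of -0.48 to 0.23 and of -0.31 to 0.56). Among the brightest and dimmest, mRpL30 read 732, 747 and 558 against 982 and 870 (log2 fold -0.45, limma adjusted p = 0.099), mRpL32 had a log2 fold of 0.08 and mRpS18B of -0.03, which was 0.01 and 0.02 after median centring and quantile normalization (limma adjusted p = 0.76 and 0.92). The member below the filter was mRpL39, with 31.1, 26.5 and 17.1 against 51.8 and 38.9. The 2 probe sets of mRpS11 gave log2 folds of 0.07 and -0.35 and those of mRpL47 0.44 and 0.19, none of them past the threshold.

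The calls can also be read by the descent of the protein, a division drawn with the values in view and given without a test. Proteins were taken as having a bacterial counterpart up to number 36 of the mRpL and 21 of the mRpS names, with mRpS24 added as the S3 homologue. The division covers the mRp symbols only and leaves out bonsai and tko, small subunit proteins of bacterial descent described below, of which bonsai fell. In the small subunit all 6 rises were among the 15 members so classed, of which 0 fell (limma; 1 lower at an unadjusted p under 0.05), beside 20.7% higher and 18.7% lower over all probe sets tested. Both falls were among the 11 others, of which 0 rose (limma; 2 higher at an unadjusted p under 0.05). This split depends on the addition of mRpS24, itself a rise, as its number alone would place it among the others. No other member was added in this way. All the others were classed by number alone, and those with higher numbers may include further proteins with a bacterial counterpart. The counts in each class are therefore approximate. Of the falls, mRpS30 has a human counterpart in the large subunit. The median log2 folds of these sets were 0.15 and -0.12. In the large subunit both classes moved in both directions. There were 3 rises and 4 falls among the 27 classed as having a bacterial counterpart. Among 17 of the others there were 1 rise and 3 falls.

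**Figure D3:**
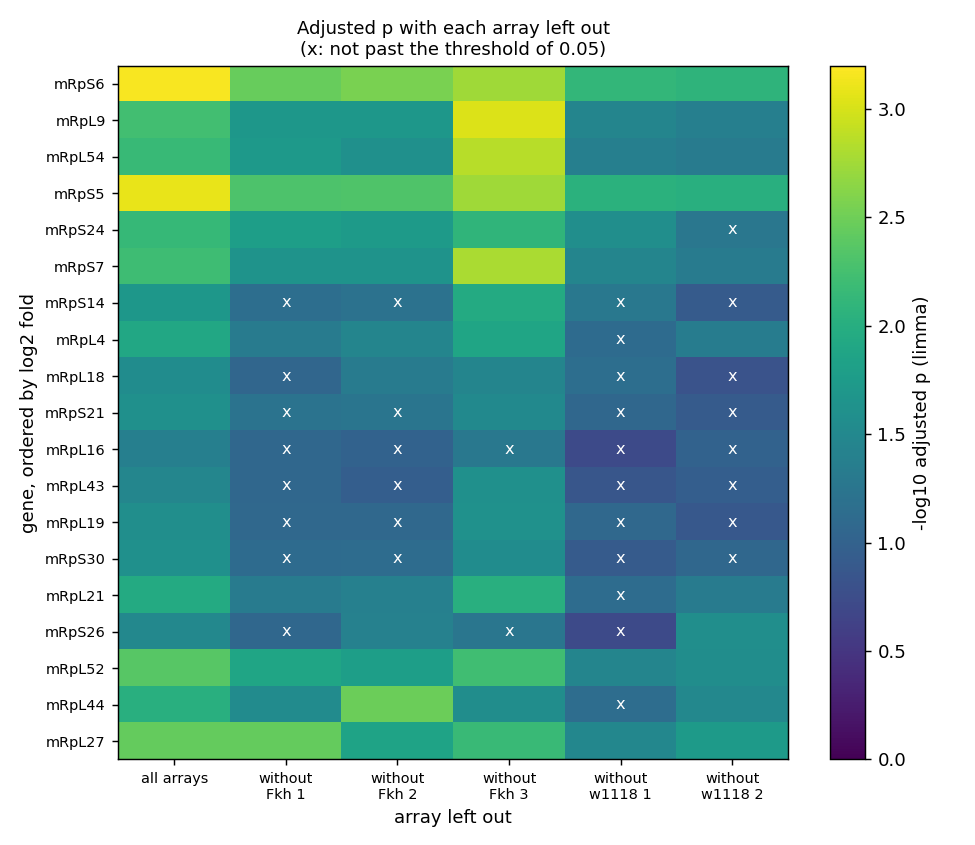
Adjusted p of the 19 called members as -log10 (colour) with all arrays and with each array left out, where x marks a fit in which the gene did not pass 0.05. mRpS5, mRpS6, mRpS7, mRpL9, mRpL27, mRpL52 and mRpL54 passed in all 5 fits.

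Of the 19 calls, 7 held with each of the 5 arrays left out in turn: the rises of mRpS5, mRpS6, mRpS7, mRpL9 and mRpL54 and the falls of mRpL27 and mRpL52. With an array left out the number of rises ranged from 2 to 5 in the large and from 3 to 7 in the small subunit, and that of falls from 2 to 7 and from 0 to 1. Without w1118 array 1 the large subunit had 2 rises and 2 falls, and leaving out Fkh-labelled array 1, 2 or w1118 array 2 left 4 falls. Small subunit rises were 3 without w1118 array 2. Small subunit falls were 0 without Fkh-labelled array 1 or w1118 array 1 (limma; 3 and 1 at an unadjusted p under 0.05) and 1 without each of the others. With the third Fkh-labelled array alone against w1118, a fit with 1 residual degree of freedom in which the spread within groups comes from the w1118 arrays only and the single array is assumed to vary alike, the counts were 2 rises and 3 falls in the large and 2 rises and 0 falls in the small subunit (limma; 2 small subunit members lower at an unadjusted p under 0.05). The median difference from w1118 of the 10 members that rose was 1.28, 1.14 and 0.81 on the log2 scale in Fkh-labelled arrays 1, 2 and 3, beside 1.21, 1.16 and 1.12 for all probe sets that rose.

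Related genes were read as 8 lists, of which 3 held calls in both directions: translation factors, mitochondrial DNA and RNA, and protein import. The lists are given with 1 probe set per gene, the brightest, beside 21.5% of all 8298 genes tested that rose and 19.3% that fell. Of the 2 ribosomal proteins with other names, bonsai, the counterpart of bacterial S15, went from 179 to 103 (log2 fold -0.72, limma adjusted p = 0.013; 0.080 and 0.052 without w1118 array 1 and 2). The other, tko, the counterpart of the decoding protein S12, read 96.3, 105 and 76.1 against 92.0 and 97.4, overlapping, with a log2 fold of -0.04 (limma adjusted p = 0.88).

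Mitochondrial translation factors held larger changes than any member. Of 10 tested, 3 rose and 2 fell. A further factor, mRRF2, lay below the filter, with 12.4, 23.0 and 10.4 with the Fkh label against 75.5 and 37.4 in w1118. With no filter it was called lower (log2 fold -1.18, limma adjusted p = 0.022). GatB, a subunit of the enzyme that completes glutaminyl transfer RNA in mitochondria, read 293, 302 and 182 with the Fkh label against 13.3 and 13.0 in w1118, a log2 fold of 3.21 (limma adjusted p = 0.00012). The initiation factor mIF2 read 180, 144 and 203 against 10.2 and 15.8 (log2 fold 2.72, limma adjusted p = 9.9e-05). The release factor mRF1 read 152, 147 and 195 against 22.9 and 21.2 (log2 fold 2.24, limma adjusted p = 0.00015). All 3 had w1118 signals between 10.2 and 22.9, near the added constant of 16, and all 3 calls held with each array left out. The falls were those of the elongation factors mEFTu2, which delivers aminoacylated transfer RNA, and mEFG1, which moves the ribosome along, with log2 folds of -0.96 and -1.10 (limma adjusted p = 0.021 and 0.036). The adjusted p of mEFTu2 was 0.061, 0.060 and 0.13 without Fkh-labelled array 1, 2 and w1118 array 2, and that of mEFG1 0.093, 0.089 and 0.16 without Fkh-labelled array 1, 2 and w1118 array 1.

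The aminoacyl-tRNA synthetases of mitochondria, which charge transfer RNAs, gave 0 calls in 11 tested (limma; 2 higher and 1 lower at an unadjusted p under 0.05), with a median log2 fold of 0.00 over the 15 measured. The 2 with the smallest p among those tested were AsnRS-m (log2 fold -0.57, limma adjusted p = 0.056) and CysRS-m (0.44, 0.091). Proteins of the cytosolic ribosome gave 0 calls in 37 tested (limma; 0 in either direction at an unadjusted p under 0.05). Many were very bright in every array, such as RpLP1 at 13478 to 14845, where the highest signal of any probe set was 15488 to 16326. Whether changes are compressed at such signals was not tested. Among those tested, the log2 folds of the 2 with the smallest p were 0.30 for RpL22-like and -0.25 for RpL37-1 (limma adjusted p = 0.16 and 0.21). RpS28-like, below the filter, read 86.0, 73.5 and 42.7 against 3.0 and 10.5 and was called higher with no filter (log2 fold 1.86, limma adjusted p = 0.003). In all, 41 of 93 listed genes were measured by a probe set with 1 symbol.

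Genes that keep and read mitochondrial DNA also split, with 3 rises and 2 falls in 14 tested. The transcription termination factor mTTF went from 65.0 to 184 (log2 fold 1.30, limma adjusted p = 0.00095) and the single-strand DNA-binding protein mtSSB from 163 to 79.9 (log2 fold -0.90, limma adjusted p = 0.0044), and both calls held with each array left out. The transcription factor mtTFB2 fell by 0.91 on the log2 scale (limma adjusted p = 0.014; 0.080 without w1118 array 2). Of 11 protein import genes tested, 2 rose and 2 fell. Roe1, a GrpE-type partner of the import motor, rose by 1.47 from 41.7 to 145 (limma adjusted p = 0.00097). Tim23, of the inner membrane channel, rose by 0.85 from 1066 to 1941 (limma adjusted p = 0.012; 0.083 without w1118 array 2). Tim8, a small import chaperone, had a log2 fold of -0.51 (limma adjusted p = 0.042), which was lost whichever array was left out (0.056 to 0.18).

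Of 8 mitochondrial chaperones and proteases tested, the protease Lon rose by 1.03 from 54.0 to 126 (limma adjusted p = 0.0043) and 0 fell (limma; 0 lower at an unadjusted p under 0.05). Among 4 regulators tested, 2 fell and 0 rose (limma; 0 higher at an unadjusted p under 0.05). ewg, the fly homologue of the mammalian mitochondrial regulator NRF1, went from 268 to 123 (log2 fold -1.04, limma adjusted p = 0.0057), a call that held with each array left out. The forkhead-family factor foxo had a log2 fold of -0.58 (limma adjusted p = 0.024; 0.058, 0.072, 0.057 and 0.13 without Fkh-labelled array 1, 2, w1118 array 1 and 2). Myc and srl were not analysed here.

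**Figure D4:**
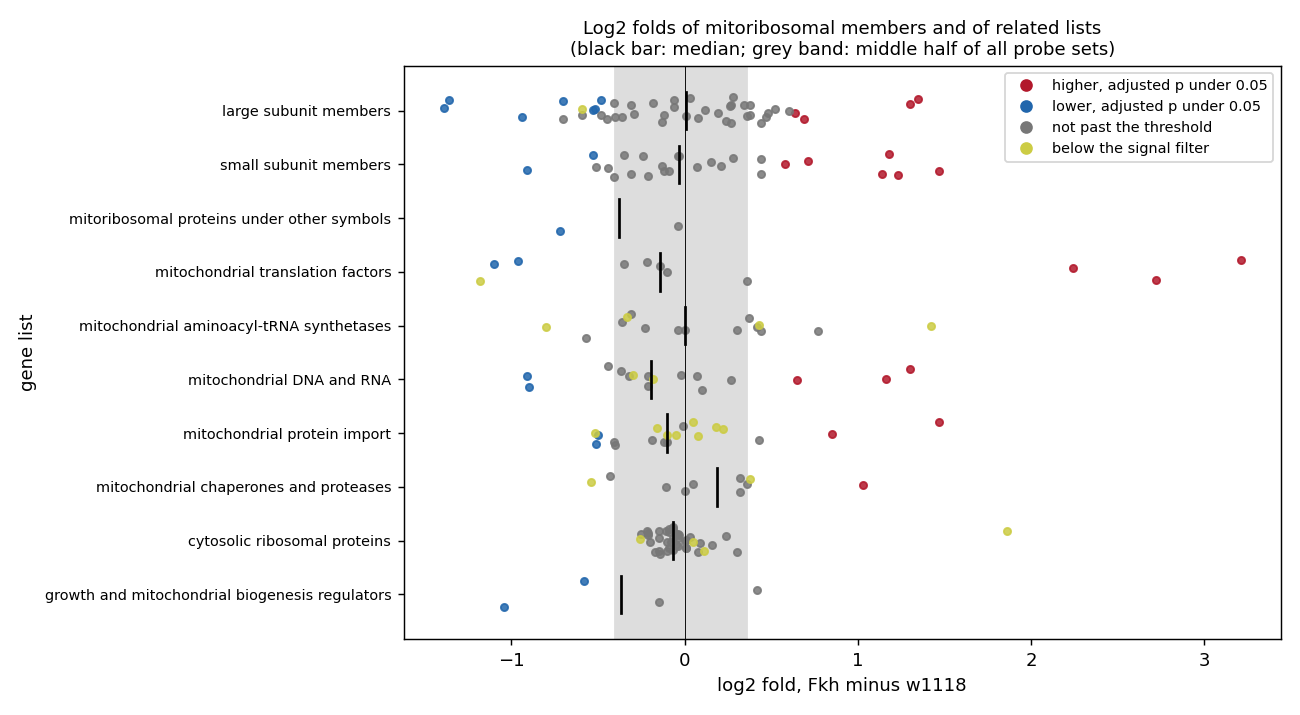
Log2 fold of each member probe set and of each gene of the 8 related lists, coloured by call, with a black bar at the median of the list and a grey band for the interquartile range of all probe sets, filtered or not (-0.40 to 0.36). For the probe sets that passed the filter this range is wider, -0.45 to 0.48. The medians of both subunits lie at 0.01 and -0.04, and GatB, mIF2 and mRF1 stand at 2.24 to 3.21 among the translation factors.

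Genes next to a member in the RefSeq gene order were read as a check of position. Next to the members that rose, 3 of 14 neighbours tested rose and 1 fell, and next to those that fell 4 of 15 rose and 4 fell, beside 16 and 7 of 77 next to members not called. Over all genes tested, 21.5% rose and 19.3% fell. Some pairs moved alike, and they were picked after their values were seen. POLDIP2, whose annotated span overlaps that of mRpL44, read 40.3, 41.5 and 52.5 with the Fkh label against 112 and 116 in w1118 (log2 fold -1.10, limma adjusted p = 0.0022). TBC1d7, which overlaps mRpS24, read 265, 243 and 176 against 114 and 77.9 (log2 fold 1.12, limma adjusted p = 0.0095), and like that of mRpS24 its call was lost without w1118 array 2 (0.067). sigmar, which overlaps mRpL43, had a log2 fold of -1.48 (limma adjusted p = 0.0017), and rept, next to mRpL21, one of -1.36 (limma adjusted p = 0.0011). Other pairs moved apart: both neighbours of mRpS26, Polr3D and CG13698, rose, by 1.51 and 3.64 on the log2 scale (limma adjusted p = 0.00055 and 3.9e-05), while mRpS26 fell.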

How the data were processed

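Each array has 1 linear intensity per probe set, as deposited. Per the series' design text, the authors used dChip to scale the arrays to a baseline array with a median intensity of 134. The sources used here do not give the dChip version, model, background handling or detection calls. Control probe sets (183) were left out. Of the other 18769, the platform annotation gives 1 symbol for 13647, and 13544 matched the RefSeq table of Release 6 plus ISO1 MT. Probe sets with several symbols, 2 of them with an mRp symbol, and 4 mRp genes without a probe set of 1 symbol were not used here.

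The authors' intensities became log2(intensity + 16) values. Probe sets up to the 40th percentile of mean signal were dropped, and groups were compared by limma 3.58.1 (R 4.3.3; lmFit with eBayes, two-sided, 3 residual degrees of freedom). P-values were adjusted by Benjamini-Hochberg over all 11261 kept, at a threshold of 0.05. The code was tested on simulated data. The submitters call the arrays biological replicates, and 0 pairs of arrays held identical values. The number of arrays, 3 against 2, limits the precision.

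Named members are, per subunit, up to 8 rises and 8 falls by size without overlap of the groups, the brightest and dimmest 2, the 2 on each side of the threshold, genes whose probe sets disagree, and up to 3 called genes per related list. The members, lists and this rule were chosen with earlier results of these data known. mRpL3, mRpL11, mRpL12, mRpL22, mRpL47, mEFTu2, mEFG1, mRRF2 and the neighbouring genes were named after their values were seen. The constant, filter, scaling, variance model, pairing and arrays were varied. Plots were made in Python 3.11.15 (matplotlib 3.10.9).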

Additional observations from a re-analysis of the deposited data

How the results depend on the processing

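No called result changed direction under any alternative. Among named members not called, the sign turned for mRpL45 with the third Fkh-labelled array alone (-0.23), for mRpL32 without w1118 array 1 (-0.15), and under several settings for mRpS18B (up to 0.23), both scalings included, and the first mRpS11 probe set (down to -0.06). Without the filter the falls were 4 in the large and 1 in the small subunit, and with a filter at the 60th percentile, which tested 27 and 15 members, 4 and 0 (limma; 0 lower in the small subunit at an unadjusted p under 0.05). With the third Fkh-labelled array alone, where only w1118 supplies the spread, there were 2 rises in each subunit and 3 and 0 falls (2 small subunit members were lower at an unadjusted p under 0.05). Leaving out 1 array at a time gave 2 to 5 rises and 2 to 7 falls in the large and 3 to 7 rises and 0 to 1 falls in the small subunit, and medians of -0.06 to 0.11 and -0.05 to 0.00. With the replicate number as a block, 5 and 5 rose and 7 and 0 fell (3 small subunit members were lower at an unadjusted p under 0.05). The sample titles give replicate numbers only. Deviations of same-numbered arrays from their group means correlated at 0.08 and -0.11. With 2 w1118 arrays the deviations in w1118 mirror each other, so these values cannot show whether same-numbered arrays are linked. Counts under both other constants, both scalings, both variance models and 1 probe set per gene stayed within 1.5 times of those given. Over all probe sets, 1222 and 1301 fell without w1118 array 1 and 2, and 1337 rose and 1397 fell with the third Fkh-labelled array alone, beside 2328 and 2104. Dim signals near the constant limit what can be seen.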
